A study of Mus musculus with 12 samples.

Results

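The regions described here are the intergenic enhancer peaks of histone H3 lysine 27 acetylation (H3K27Ac) in sorted mouse microglia, 4491 of the 55862 peaks in the H3K27Ac table. A peak was included when it was annotated as intergenic, lay more than 1000 bp from the nearest transcription start site (TSS), was narrower than 10000 bp, did not lie on an LTR repeat, and had been found in both the WT and the *Cx3cr1*-KO peak list. Of the 19850 intergenic peaks of the table, 5125 were in both lists, and all of these lay beyond the TSS limit. The width limit left 4999 and the repeat criterion left 4491. Intergenic peaks found only in the WT list (9081) or only in the KO list (5644) were not included. The widest region kept was 9971 bp and the next wider one was 10007 bp. The region closest to a TSS lay 1002 bp away. The choice used position, width and the peak lists, and not the size of a difference between genotypes. It still left out peaks found in a single genotype. Of tested H3K27Ac peaks, 96.3% of those in the WT list alone differed by at least 2-fold between KO and WT. The shares were 38.9% for the KO list alone and 5.34% for both lists. The rarity of large differences among the regions is thus in part set by the choice.

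ChIP-seq for H3K27Ac and for Rpb2, a subunit of RNA polymerase II, was performed on microglia of 2-mo-old mice on the C57BL/6J background. The groups were WT mice and mice labelled *Cx3cr1*-deficient (KO), in which both copies of *Cx3cr1* were disrupted by the *eGFP* gene (Cx3cr1 eGFP/eGFP), and all were littermates from crosses of heterozygous parents. The disruption was present from conception and in every cell, so it is not confined to microglia. For each mark and genotype there was 1 pool of 3 females and 1 pool of 3 males, giving 2 pools per genotype and 4 libraries per mark, and the 4 input samples among the 12 samples were not used here. The cells were sorted as CD11b+CD45lo events. In such pools, fewer cells carrying a mark and less mark per cell cannot be told apart.

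H3K27Ac is placed on nucleosomes next to active enhancers and promoters by the acetyltransferases p300 and CBP. Enhancers are DNA segments that bind transcription factors and raise transcription of a gene that can lie far away on the same chromosome. In microglia, as in other macrophages, most enhancers are opened by the lineage factor PU.1 together with partners of the C/EBP, AP-1, IRF and RUNX families. RNA polymerase II is also recruited to many active enhancers, where it makes short unstable transcripts. *Cx3cr1* encodes the receptor for the neuronal chemokine fractalkine and is one of the genes that mark microglia. No mark that separates enhancers from distant promoters, such as H3K4me1, was measured in these libraries, so the word enhancer rests on position and acetylation alone.

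Sequences of 300 bases are shown for 7 regions on which the results turn. They were read from GRCm38 (mm10), plus strand, around the centre of the Rpb2 peak where the region held one (*Itpripl2*, *Tyrobp* and *Ikzf1*) and otherwise around the centre of the H3K27Ac peak. The capitals mark matches, on either strand, to the letters searched for 5 factor families, which were GAGGAAGT for PU.1, TGANTCA for AP-1, TTGCNNAA for C/EBP, AANNGAAA for IRF and TGTGGTT for RUNX. The *4930517M08Rik* region (chr17:4626123-4626422) was the only one called between genotypes and holds a repeated pentamer. The windows named for *Rasgrf2* (chr13:92030722-92031021) and *Itpripl2* (chr7:118484096-118484395) come from regions with the lowest p-values in the direction of higher acetylation in KO, and that named for *Ccr1l1* (chr9:123984525-123984824) from one of the densest regions. *Tyrobp* (chr7:30394301-30394600), *Ikzf1* (chr11:11667657-11667956) and *Ccl3* (chr11:83640087-83640386) come from dense regions near genes that mark microglia or are switched on in them.
*4930517M08Rik*: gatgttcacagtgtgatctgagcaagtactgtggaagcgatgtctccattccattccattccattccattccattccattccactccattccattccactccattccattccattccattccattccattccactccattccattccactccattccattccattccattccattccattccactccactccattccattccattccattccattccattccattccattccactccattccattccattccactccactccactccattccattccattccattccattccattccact
*Rasgrf2*: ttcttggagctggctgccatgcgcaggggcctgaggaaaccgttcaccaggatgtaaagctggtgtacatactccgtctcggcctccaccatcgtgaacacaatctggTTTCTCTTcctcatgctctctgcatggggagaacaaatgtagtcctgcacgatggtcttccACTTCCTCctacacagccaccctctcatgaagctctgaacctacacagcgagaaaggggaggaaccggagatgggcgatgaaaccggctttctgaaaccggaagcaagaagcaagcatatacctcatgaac
*Itpripl2*: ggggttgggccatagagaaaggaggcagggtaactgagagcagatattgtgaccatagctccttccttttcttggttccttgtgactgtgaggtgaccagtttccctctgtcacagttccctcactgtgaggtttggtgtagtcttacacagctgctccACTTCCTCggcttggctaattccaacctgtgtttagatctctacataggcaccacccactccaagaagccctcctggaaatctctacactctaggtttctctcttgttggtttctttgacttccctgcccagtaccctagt
*Ccr1l1*: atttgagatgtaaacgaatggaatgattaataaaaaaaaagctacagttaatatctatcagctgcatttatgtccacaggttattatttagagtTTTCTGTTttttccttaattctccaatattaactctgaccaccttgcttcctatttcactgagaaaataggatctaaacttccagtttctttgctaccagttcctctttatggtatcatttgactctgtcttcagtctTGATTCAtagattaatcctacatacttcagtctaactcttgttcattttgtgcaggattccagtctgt
*Tyrobp*: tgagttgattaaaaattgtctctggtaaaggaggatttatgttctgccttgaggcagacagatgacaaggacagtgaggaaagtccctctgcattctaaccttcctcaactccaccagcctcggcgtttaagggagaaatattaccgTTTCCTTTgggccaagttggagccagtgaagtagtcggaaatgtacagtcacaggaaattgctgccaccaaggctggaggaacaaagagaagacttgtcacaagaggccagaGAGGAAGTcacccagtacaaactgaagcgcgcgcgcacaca
*Ikzf1*: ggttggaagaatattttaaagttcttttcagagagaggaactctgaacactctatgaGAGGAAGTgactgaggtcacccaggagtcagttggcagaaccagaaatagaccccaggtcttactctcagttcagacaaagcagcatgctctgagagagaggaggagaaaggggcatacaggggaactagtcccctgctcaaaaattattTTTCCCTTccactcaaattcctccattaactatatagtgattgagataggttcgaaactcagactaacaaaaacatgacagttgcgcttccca
*Ccl3*: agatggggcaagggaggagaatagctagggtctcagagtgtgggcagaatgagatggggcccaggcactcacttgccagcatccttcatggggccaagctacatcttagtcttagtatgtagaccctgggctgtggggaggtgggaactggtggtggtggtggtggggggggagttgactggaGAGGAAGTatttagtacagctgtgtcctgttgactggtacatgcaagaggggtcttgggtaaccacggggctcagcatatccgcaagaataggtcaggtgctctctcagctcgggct

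In these windows PU.1 letters were found in *Rasgrf2*, *Itpripl2*, *Tyrobp*, *Ikzf1* and *Ccl3*, and on the minus strand in the first pair. IRF letters were found in *Rasgrf2*, *Ccr1l1*, *Tyrobp* and *Ikzf1*, and AP-1 letters in *Ccr1l1*. The *4930517M08Rik* window held 40 copies of CATTC, counted on the strand shown, whereas no other of 4488 regions with sequence held more than 3. A match is a description of the letters and not a binding site.

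The libraries were unequal in enrichment. The WT female H3K27Ac library had 15.9% of its 21134403 reads in peaks, against 61.1% to 65.3% in the other 3 libraries, whose totals were 10395804 for WT male, 20532826 for KO female and 20662655 for KO male. The intergenic enhancer peaks held 2.094% of all reads in WT female, 10.3% in WT male, 10.2% in KO female and 9.772% in KO male. The WT values thus spanned the KO values, with 6.215 ± 5.828% in WT and 9.998 ± 0.3202% in KO (mean ± SD, n = 2 pools each, difference 3.783 percentage points, two-sided exact permutation p = 1.0). The smallest p that 2 pools against 2 allow is 0.33. The median region held 61 reads in WT female, 128 in WT male, 253 in KO female and 249 in KO male, and 9 to 32 regions were at 0 reads in a library. A count of 0 allowed up to 0.142 to 0.289 CPM (reads per 1000000 reads of the library), which covers counting error only. Levels written as TMM CPM below were instead scaled to the reads in peaks (edgeR's TMM factors), which is the scale of the fold changes and, where no other is named, of statements that the libraries of the genotypes did or did not overlap. The counts of called regions, the medians of gene lists and the regions with the lowest p-values are also given without the WT female library. The wide H3K27Ac peak over *Cx3cr1* itself (chr9:120026314-120074030) held 3792 reads in WT female, 10617 in WT male, 13268 in KO female and 13047 in KO male. Because the inserted gene leaves most of this peak in place, these reads do not check the genotype labels.

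**Figure D1:**
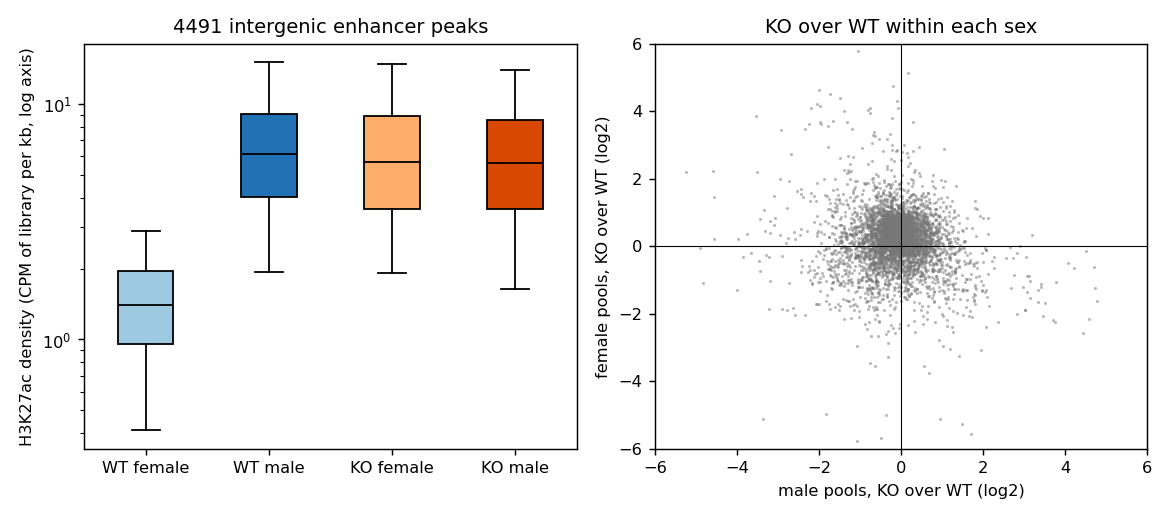
H3K27Ac density of the 4491 intergenic enhancer peaks in each library, in CPM per kb of peak on a log axis (left; boxes show quartiles and whiskers the 5th and 95th percentiles, without regions at 0 reads), and the log2 ratio of KO over WT in the female pools against that in the male pools, 1 point per region (right). The WT female library sits below the other 3, with a median density of 1.40 against 5.59 to 6.13, and the ratios have a median of 0.238 in females and −0.0975 in males.

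The regions were broad and of modest density. The median width was 2135 bp, with a range from 505 to 9971 bp. The median distance from the nearest TSS was 23954 bp, the quartiles were 10045 and 57675 bp, and the farthest lay 1019369 bp away. Upstream of the nearest gene were 3115 regions (69.4%), and 1376 (30.6%) were downstream. The nearest gene was protein-coding for 3631 regions (80.9%) and a non-coding RNA for 820 (18.3%). Density, the CPM of the whole library per kb of peak averaged over the 4 libraries, had a median of 4.569 and a range from 0.582 to 34.6. The regions lay on all chromosomes in the table except Y, from 0.62 per Mb on the X chromosome to 2.42 per Mb on chromosome 11, with the largest number, 379, on chromosome 2.

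Density was compared with that of 6679 distal intronic peaks chosen by the same distance, width, repeat and list criteria. The intergenic regions differed little from them and were less dense than promoter peaks. Their median density was 1.40 in WT female, 6.128 in WT male, 5.652 in KO female and 5.586 in KO male, against 1.406, 5.538, 5.353 and 5.08 for the intronic regions in the same order. The intergenic median was 1.06 times the intronic one and was higher in 3 of 4 libraries (exact sign-flip permutation p = 0.25, two-sided). Against 4944 promoter peaks, those within 1000 bp of a TSS, it was 0.69 times as high and lower in all 4 libraries (exact sign-flip p = 0.125, the smallest that 4 libraries allow).

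The rank order of the regions by density was shared unequally between libraries. Spearman's rho over the 4491 regions was 0.847 between KO female and KO male and 0.497 between WT female and WT male, as a description across regions that are not independent. WT male correlated at 0.74 with KO female and 0.73 with KO male, and WT female at 0.629 and 0.601.

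The densest regions lay near genes of varied function. The 2 densest by the mean over libraries were short. One lay on an unplaced contig near the pseudogene *Pisd-ps3* and had 846 reads in WT female, 517 in WT male, 1372 in KO female and 1105 in KO male. The other, 885 bp wide, lay 65024 bp from *Cr2* (chr1:195241297-195242181), with 210, 212, 889 and 645 reads in the same order. The densities were 26.4 in WT female, 32.8 in WT male, 44.1 in KO female and 35.3 in KO male for the former, and 11.2, 23.04, 48.9 and 35.3 for the latter. WT female was lowest in both, yet far above its median of 1.40 over all regions.

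The next regions were wide and had the profile of most others, with low values in WT female. The region near *1700027F09Rik* (chr5:64374939-64383265) had 683, 2600, 4630 and 4811 reads, and a mean density of 22.2. Near *Tnfaip3*, which encodes the NF-kB inhibitor A20, a region 47981 bp upstream (chr10:19060470-19066312) had 418, 1751, 3181 and 2358 reads. Densities from 18.8 to 20.6 were also found near *Fam105a*, *Gm5122*, *Sfmbt1*, *Rbx1* and *Ccr1l1*.

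Regions often lay in groups. When neighbours within the gap commonly used to stitch super-enhancers were joined, 2107 regions (46.9%) fell into 827 groups of 2 or more, and 2384 stood alone. There were 41 groups of 5 or more. The largest, with 10 regions, spanned 81741 bp beside *Dleu2* (chr14:61756545-61838285), a long non-coding RNA gene that hosts microRNAs. Its regions held 1115 reads in WT female, 2662 in WT male, 5167 in KO female and 4834 in KO male. A group of 9 regions followed *Cebpa*, the gene for the myeloid factor C/EBP-alpha, up to *Slc7a10* (chr7:35139522-35172503), with 539, 764, 1564 and 1792 reads.

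Counted by nearest gene, the 4491 regions belonged to 2625 genes, of which 1696 had a single region and 114 had 5 or more. *Dleu2* had 15 regions. *Maf*, which encodes a transcription factor of mature macrophages and microglia, had 14 regions between 55221 and 308972 bp from its start, with 1099 reads in WT female, 2809 in WT male, 4429 in KO female and 4480 in KO male. *Sall1*, the zinc-finger factor that maintains microglial identity, had 13 regions between 9789 and 527123 bp from its start, with 1055, 3025, 4951 and 5072 reads. The other genes among the leading ones were *Gm17746* with 13, *Gm826*, *Ly86* and *Bach2* with 12 each, *Mir5130* with 11, and *Marcks*, *Zfp217*, *Rreb1*, *Prdm1* and *Gm35135* with 10 each. *Ly86* encodes the MD-1 partner of a Toll-like receptor homologue, *Bach2* and *Prdm1* encode transcriptional repressors of immune cells, and *Marcks* encodes a substrate of protein kinase C.

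The median log2 fold change of KO over WT over the regions of one gene ranged from −0.34 for *Maf* to 0.24 for *Prdm1* among these 13 genes. At *Prdm1* both KO libraries lay above both WT libraries in 4 of 10 regions and below them in 0. At *Maf* they lay above in 1 of 14 and below in 3. For *Sall1* the counts were 1 above and 1 below of 13, with a median of −0.14. Over all 4491 regions the shares were 17.2% above and 13.4% below. Without WT female the medians were −0.51 for *Maf*, −0.28 for *Sall1* and −0.19 for *Prdm1*, whose sign thus changed, beside −0.117 over all regions.

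The comparison of KO with WT asks whether loss of *Cx3cr1* altered acetylation at these regions. With edgeR's quasi-likelihood test and Benjamini-Hochberg adjustment over 55798 tested peaks, 13 peaks passed an adjusted p of 0.05 (0.0233% of those tested), and 1 of the 4491 regions was among them. That region, 841 bp wide, lies 8708 bp from the non-coding gene *4930517M08Rik* (chr17:4625852-4626692). It had 27 reads in WT female, 354 in WT male, 0 in KO female and 66 in KO male. The WT male library was thus far above the other 3, and the KO male library was above WT female in reads. The levels were 32.1 ± 34.6 TMM CPM in WT and 2.649 ± 3.747 TMM CPM in KO (mean ± SD, n = 2 pools each), and the log2 fold change was −3.62 (SE 0.46, edgeR adjusted p = 3.61e-11). The call was lost when either WT male or KO female was left out, and leaving out single libraries moved the log2 fold change from −11.0 to −1.52. It was also lost with DESeq2 (adjusted p = 0.702), limma voom (adjusted p = 0.192), and edgeR scaled to whole-library totals (adjusted p = 0.918), fitted on peaks of both lists only (0.999) or run with its newer quasi-likelihood method (0.767). Its sequence is the CATTC repeat printed above.

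The other regions did not pass the test, and their distribution is given as a description. The median log2 fold change of the 4491 regions was 0.0345 (SD 0.534), with quartiles of −0.310 and 0.289, against a median of −0.208 over all tested peaks. A difference of at least 2-fold was found in 321 regions (7.15%). At an unadjusted edgeR p under 0.05, 156 regions (3.47%) were higher in KO, against 1.35% of all tested peaks, and 90 (2.0%) were lower, against 3.60%. Both KO libraries lay above both WT libraries in 771 regions (17.2%), against 14.3% of all tested peaks, and below them in 604 (13.4%), against 13%. All tested peaks include those found in the WT or KO list alone, which none of these regions are. Over the 21033 tested peaks of both lists the shares at an unadjusted edgeR p under 0.05 were 2.67% higher and 1.65% lower, and both KO libraries lay above in 18.9% and below in 13.2%. The median of those peaks was 0.0439, and 5.34% differed by at least 2-fold.

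The number of regions called depended on the WT libraries. Without WT female, 108 of the 4491 regions passed (2.40%; 38 higher in KO and 70 lower), against 1.53% of 45378 tested peaks, of which 0.721% were higher and 0.809% lower. Without WT male, 720 passed (16.0%; 679 higher and 41 lower), against 14.8% of 55143 tested peaks, of which 4.92% were higher. The median log2 fold change of the regions was −0.117 in the former and 0.272 in the latter. In these fits the lone WT library was assumed to vary like the other group. Without KO female 0 regions passed and without KO male 1 did. DESeq2 on all 4 libraries called 11 of the 4491 regions, against 0.430% of the 55798 peaks.

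The median ratios of the female and the male pools had opposite signs. The log2 ratio of KO over WT had a median of 0.238 in females and −0.0975 in males, with 1 pool per sex and genotype. It was above 0 in 2878 regions in females and in 1900 in males, and its sign differed between sexes in 2402 regions (53.5%). The female ratio contains the WT female library with its 15.9% of reads in peaks, and the part of this library in the difference was not tested.

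The regions with the lowest p-values in the direction of higher acetylation in KO had both WT libraries below both KO libraries in TMM CPM. The region 42829 bp upstream of *Rasgrf2* (chr13:92029563-92032179), a gene for a Ras guanine nucleotide exchange factor, had 43 reads in WT female, 77 in WT male, 555 in KO female and 392 in KO male. Its level was 12.2 ± 0.112 TMM CPM in WT and 36.8 ± 7.573 TMM CPM in KO (mean ± SD, n = 2 pools each). The log2 fold change was 1.59 (SE 0.37, edgeR adjusted p = 0.0563). The region near *Eps8l1* (chr7:4460297-4462382), whose product belongs to a family of actin regulators, had 52, 48, 350 and 425 reads and a log2 fold change of 1.46 (SE 0.39, edgeR adjusted p = 0.431). The region near *Itpripl2* (chr7:118478188-118486080) had 145, 344, 1335 and 1241 reads and a log2 fold change of 1.06 (SE 0.29, edgeR adjusted p = 0.523).

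Next came a region 13042 bp upstream of *Ccr1l1* (chr9:123988974-123993926), a gene for a chemokine receptor of the Ccr1 family, with 161 reads in WT female, 597 in WT male, 1810 in KO female and 1879 in KO male. Its log2 fold change was 1.02 (SE 0.30, edgeR adjusted p = 0.607). The region near *Tekt3* (chr11:63045011-63048247), which encodes a protein of flagella, had 72, 480, 1222 and 1303 reads and a log2 fold change of 1.0 (SE 0.29, edgeR adjusted p = 0.610). At *Tekt3* the WT male library lay close to the KO libraries and WT female far below. Without WT female the log2 fold changes were 1.57 for *Rasgrf2* (edgeR adjusted p = 0.00384), 1.98 for *Eps8l1* (0.00185), 0.86 for *Itpripl2* (0.00294) and 0.59 for *Ccr1l1* (0.025), all of which passed, and 0.36 for *Tekt3* (0.36), which did not. Without WT male all 5 passed, and their log2 fold changes were 1.6, 1.05, 1.29, 1.66 and 2.28 in the same order. On all 4 libraries DESeq2 called *Rasgrf2* (adjusted p = 0.00401) and *Itpripl2* (adjusted p = 0.00503). The denser *Ccr1l1* region, 6266 bp upstream (chr9:123982022-123987326), had 336, 874, 2828 and 3337 reads and a log2 fold change of 1.04 (SE 0.31, edgeR adjusted p = 0.643). It was among the regions called without WT female, with a log2 fold change of 0.78 there.

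In the direction of lower acetylation in KO, the 4 regions after *4930517M08Rik* had an edgeR adjusted p of 0.749. The region 67983 bp from *Spsb1* (chr4:149886058-149887988) had 81 reads in WT female, 90 in WT male, 59 in KO female and 96 in KO male, with a log2 fold change of −1.60. The region 110427 bp upstream of *Pmepa1* (chr2:173384742-173389178), whose product restrains TGF-beta signals, had 173, 291, 395 and 225 reads and a log2 fold change of −0.99. The regions near *Rps6ka1* and *Cables1* had log2 fold changes of −1.76 and −2.13. Raw reads overlapped between genotypes at all 4 of these regions, with 77, 68, 85 and 38 reads at *Rps6ka1* and 62, 63, 63 and 18 at *Cables1*. The fold changes above are scaled to reads in peaks, of which the WT libraries had fewer. With whole-library totals the log2 fold changes were −0.73 for *Spsb1*, −0.26 for *Pmepa1*, −0.76 for *Rps6ka1* and −1.18 for *Cables1*. On that scale the median of all 4491 regions was 0.655.

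**Figure D2:**
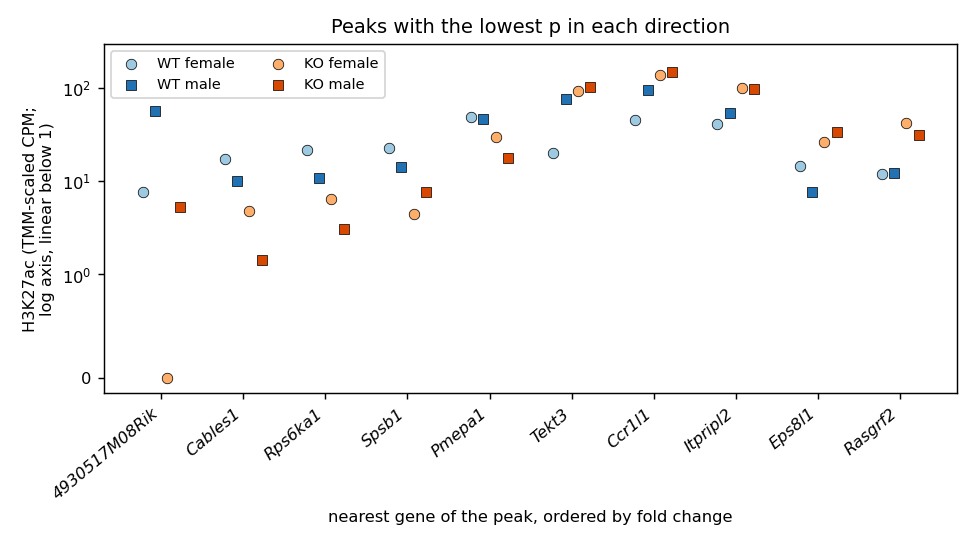
H3K27Ac level (CPM after TMM, log axis that is linear below 1) for the 10 regions with the lowest p-values, 5 in each direction, with 1 point per library (WT and KO, female and male pools). At *4930517M08Rik*, the only region that passed the test, the KO female library is at 0, and the WT male library stands above the WT female one.

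The regions near genes of 10 lists of microglial biology were compared, with each region given to its nearest gene. The lists took in 273 regions, 193 of them within 50 kb of the TSS. In every list 0 regions passed the edgeR test, and at an unadjusted edgeR p under 0.05 a list had 0 to 7 regions higher in KO and 0 to 3 lower, so the lists are described by counts and medians beside those of all 4491 regions. Without WT female, where all regions had a median of −0.117, the list medians were 0.253 for AP-1 and immediate-early genes, −0.105 for the TGF-beta pathway, −0.136 for chemokine receptors and −0.166 for Toll-like and Fc receptors. They were −0.231 for disease-associated genes, −0.24 for transcription factors, −0.261 for cytokines, −0.284 for lipid regulation, −0.345 for homeostatic genes and −0.444 for MHC class II. The sign of the median thus changed in 6 of the 10 lists.

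Homeostatic microglia genes, which mark microglia in the undisturbed brain, had 31 regions at 10 of 25 genes, with a median log2 fold change of 0.0111, and 3 regions lay with both KO libraries above and 3 below. The densest were at *Csf1r*, the receptor for the growth factors on which microglia depend, with 343 reads in WT female, 1222 in WT male, 2087 in KO female and 1874 in KO male. A *Sall1* region 228562 bp upstream (chr8:89271155-89274293) had 180, 566, 664 and 795 reads, and another at 527123 bp (chr8:89568767-89573803) had 143, 547, 1231 and 1131. Genotypes overlapped at *Csf1r* and at the nearer *Sall1* region. At the farther one both KO libraries lay above both WT libraries, with a log2 fold change of 0.52 that did not pass the test.

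Transcription factors of the lineage and of signal responses had 75 regions at 18 of 44 genes, with a median of −0.0469 and 7 regions above and 10 below. The densest lay upstream of *Zeb2* (chr2:45193400-45201848), *Irf2bp2* (chr8:126664802-126668636) and *Ikzf1* (chr11:11665617-11673423). *Zeb2* encodes a repressor that keeps macrophage identity, and *Ikzf1* encodes the lymphoid and myeloid factor Ikaros. The *Ikzf1* region had 315 reads in WT female, 1238 in WT male, 2407 in KO female and 2095 in KO male. Its densities of 1.91, 15.2, 15.0 and 12.99 CPM per kb placed WT male and both KO pools together.

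In the list of AP-1, Egr and other immediate-early genes, which are induced within minutes of a stimulus, more regions lay on the KO side than on the WT side. It had 49 regions at 17 of 30 genes and a median log2 fold change of 0.296. Both KO libraries lay above both WT libraries in 20 of the 49 (40.8%) and below them in 2. Over all 4491 regions the corresponding shares were 17.2% and 13.4%. In females 37 of the 49 ratios were above 0 (median 0.361), against 2878 of all 4491 regions (median 0.238). In males 35 of the 49 were (median 0.274), against 1900 of all regions (median −0.0975). An unadjusted edgeR p under 0.05 with higher values in KO was found in 3.47% of all regions and 2.67% of peaks of both lists. Of the 49, 7 had such a p, and 0 passed the adjustment. Without WT female 2 of them passed (4.08%), against 2.40% of all regions and 1.53% of peaks, and without WT male 13 did (26.5%), against 16.0% and 14.8%. The list was chosen with earlier results of these data known, so its direction is a description.

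Within this list, *Fos* had 7 regions, 4 of them with both KO libraries above, *Klf4* had 6 with 4 above, and *Jun* had 9 with 3 above and 1 below. *Fos* and *Jun* encode the partners of the AP-1 dimer, and *Klf4* and *Klf2* encode zinc-finger factors that restrain inflammatory genes. A *Fos* region 12524 bp downstream of the start (chr12:85484893-85487935) had 47 reads in WT female, 127 in WT male, 494 in KO female and 356 in KO male (log2 fold change 0.96, SE 0.35). A second one at 59462 bp (chr12:85531277-85535427) had 101, 404, 1104 and 977 reads and a log2 fold change of 0.79. A *Klf4* region 273729 bp away (chr4:55804265-55808143) had 56, 141, 404 and 471 reads and a log2 fold change of 0.83.

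A *Klf2* region 23244 bp upstream (chr8:72294007-72297629) had 102, 333, 831 and 851 reads and a log2 fold change of 0.67. For *Dusp1*, which encodes a phosphatase that switches off MAP kinases, a region at 5403 bp (chr17:26501714-26504424) had 113, 257, 703 and 739 reads and a log2 fold change of 0.62. The *Jun* regions at 104677 and 109254 bp had log2 fold changes of 0.81 and 0.58. For all 7 regions the edgeR adjusted p was 0.811. Going against this direction, a *Fos* region at 43959 bp (chr12:85516819-85518880) had 75, 60, 123 and 145 reads and a log2 fold change of −0.54, and the densest region of the list, upstream of *Btg2* (chr1:134082322-134085292), had densities of 4.33, 22.4, 17.6 and 18.9 CPM per kb, in which the genotypes overlapped.

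The remaining lists had medians on both sides of 0. Chemokine and chemotactic receptors had 18 regions with a median of 0.159, 4 above and 2 below, including the *Ccr1l1* regions. A *Ccr6* region 23849 bp upstream had densities of 2.45, 17.9, 15.9 and 14.8 CPM per kb. Cytokines and chemokines had 25 regions with a median of −0.132, 2 above and 3 below. The densest, 9142 bp downstream of *Ccl3* (chr11:83638879-83641593), a gene for a chemokine that activated microglia release, had densities of 2.11 in WT female, 16.5 in WT male, 10.7 in KO female and 9.89 in KO male. Regions near *Il1b* and *Il1a*, the genes for interleukin-1 beta and alpha, had densities of 12.4 and 8.62 in KO female, 13.4 and 12.2 in KO male, 10.9 and 10.3 in WT male, and 1.41 and 1.49 in WT female.

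Toll-like, Fc and phagocytic receptors had 24 regions with a median of 0.0838, 3 above and 3 below. Near *Tlr3*, the receptor for double-stranded RNA, the densities were 2.13 in WT female, 11.3 in WT male, 13.6 in KO female and 11.9 in KO male. Disease-associated microglia genes had 24 regions with a median of 0.0219, 2 above and 1 below. The densest of them lay 19484 bp upstream of *Tyrobp* (chr7:30392586-30396023), which encodes the adaptor of Trem2, with 265 reads in WT female, 935 in WT male, 1337 in KO female and 1618 in KO male. The levels there were 112 ± 52.7 TMM CPM in WT and 116 ± 20.0 TMM CPM in KO (SD, n = 2 pools each).

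Lipid and sterol regulation had 12 regions (median 0.0179, 1 above, 2 below), TGF-beta receptors and the Smad pathway had 10 (0.0556, 1 above, 1 below), and MHC class II presentation had 5 (−0.117, 1 above, 0 below). In the last of these, a region at *H2-DMb2* (chr17:34140557-34145683), which encodes a chain of the peptide-loading molecule, had densities of 1.26 in WT female, 11.3 in WT male, 14.8 in KO female and 12.6 in KO male.

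Lists of marker genes of other cells held few of these regions. Neuron and astrocyte markers had 2 regions each, endothelial and mural markers had 5, border macrophage and monocyte markers had 2, and oligodendrocyte and lymphocyte or granulocyte markers had 1 each. Of the listed marker genes, 2 of 17 neuron, 1 of 10 astrocyte, 1 of 12 oligodendrocyte, 3 of 11 endothelial, 2 of 12 border macrophage and 1 of 16 lymphocyte or granulocyte genes had a region. Their summed levels per library, in CPM of the whole library, were 3.97 to 16.9 CPM for neuron, 3.88 to 14.4 CPM for astrocyte, 5.58 to 21.6 CPM for oligodendrocyte, 14.2 to 65.2 CPM for endothelial, 4.4 to 32.9 CPM for border macrophage and monocyte and 0.899 to 7.21 CPM for lymphocyte and granulocyte markers, and the lowest value of each was in WT female. Homeostatic microglia genes reached 145 to 879 CPM, summed over 31 regions, so these sums depend on the number of regions. By region, the median density of homeostatic genes was 4.64 CPM per kb. It was 4.06 for neuron, 3.46 for astrocyte and 8.93 for oligodendrocyte markers. For endothelial, border macrophage and lymphocyte or granulocyte markers it was 4.91, 5.47 and 4.29. At the *Mog* region, the gene of a myelin glycoprotein, the levels on the other scale were 29.8 ± 5.038 TMM CPM in WT and 31.9 ± 2.629 TMM CPM in KO (mean ± SD, n = 2 pools each). The part of such cells in the differences between genotypes was not tested.

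**Figure D3:**
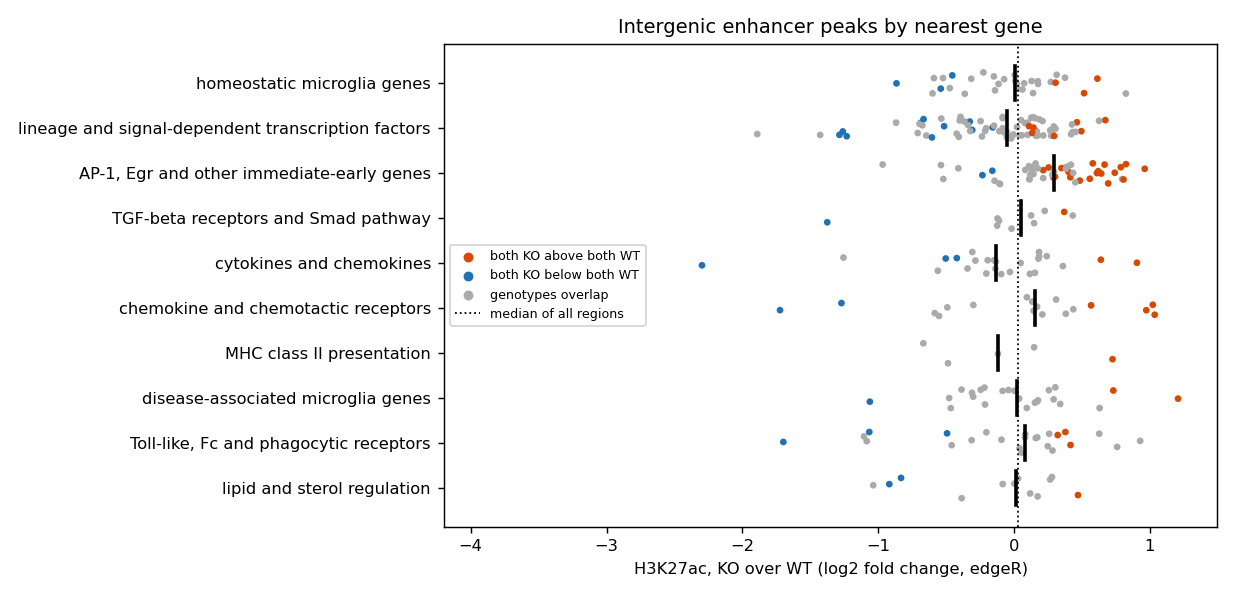
Log2 fold change of H3K27Ac in KO over WT (edgeR) for each region near a gene of 10 lists, with 1 point per region, a bar at the median of each list and a dotted line at the median of all 4491 regions. The list of AP-1, Egr and immediate-early genes has its median at 0.296 and 20 of 49 regions with both KO libraries above both WT libraries.

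Because the KO allele was made in embryonic stem cells and bred onto C57BL/6J, regions near *Cx3cr1* on chromosome 9 were counted apart. Within 10 Mb of the *Cx3cr1* start lay 29 of the regions, with a median log2 fold change of 0.141 (SD 0.681) and a range from −1.47 to 1.27. The other 4462 had a median of 0.0337 (SD 0.533). A difference of at least 2-fold was found in 6 of the 29 (20.7%) and in 7.06% of the others, and an unadjusted edgeR p under 0.05 in 6 (20.7%) and in 5.38%. None of the 29 passed the adjusted edgeR test. Without WT female 3 of the 29 passed (10.3%), against 2.35% of the others, whereas at least 2-fold was reached by 4 (13.8%), against 13.9%, and the medians were 0.171 and −0.118. The 6 were both of the dense *Ccr1l1* regions, 3914.8 and 3921.6 kb from the *Cx3cr1* start, 2 near *Gm4668* and 2 near *Gadl1*. They did not share a direction, since 1 *Gadl1* region (chr9:115907350-115909034) had a log2 fold change of −1.47 with 58 reads in WT female, 77 in WT male, 61 in KO female and 71 in KO male. A *Gm4668* region (chr9:116375019-116377171) had 22, 106, 365 and 366 reads and a log2 fold change of 1.27. Linked sequence carried with the allele cannot be told apart here from an effect of losing the receptor.

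RNA polymerase II was found at a minority of the regions. At least 1 Rpb2 peak overlapped 1619 regions (36.0%), against 35.4% of the distal intronic peaks, 85.3% of the promoter peaks and 23.4% of all H3K27Ac peaks. With Rpb2 peaks of both the WT and the KO list only, the shares were 15.2% of the intergenic regions, 14.8% of the intronic and 53.5% of the promoter peaks. Regions with an Rpb2 peak had a median H3K27Ac density of 7.286 and a median width of 3291 bp, against 3.665 and 1722 bp for those without. The share was larger among denser regions, from 7.57% in the lowest of 4 density classes of equal size through 16.8% and 40.9% to 78.9% in the highest, while the median width went from 1297 to 4004 bp. A wider region has more room for an overlap. Farther from the TSS the share was smaller, from 44.8% of the 1116 regions within 10 kb to 35.5% of the 2780 between 10 and 100 kb and 22.4% of the 595 beyond 100 kb, whose median densities were 4.82, 4.62 and 4.03.

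In all, 2273 Rpb2 peaks with a median width of 260 bp lay inside the regions. Both lists held 806 of these, only the WT list 212 and only the KO list 1255, and the Rpb2 library of KO female was the deepest, with 44332626 reads against 11662185 to 16528108 in the others. The Rpb2 library labelled WT female had 136 reads in peaks at Y-linked genes, against 214 in WT male, 0 in KO female and 266 in KO male, which goes against its label. The H3K27Ac library of the same label had 0. The median Rpb2 density inside the regions was 12.6 CPM per kb of Rpb2 peak, against 10.6 over all Rpb2 peaks and 20.0 at those within 1000 bp of a TSS. Over the 1619 regions, Spearman's rho between H3K27Ac and Rpb2 density was 0.524, and between the log2 fold changes of the marks 0.0513, both as descriptions across regions.

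**Figure D4:**
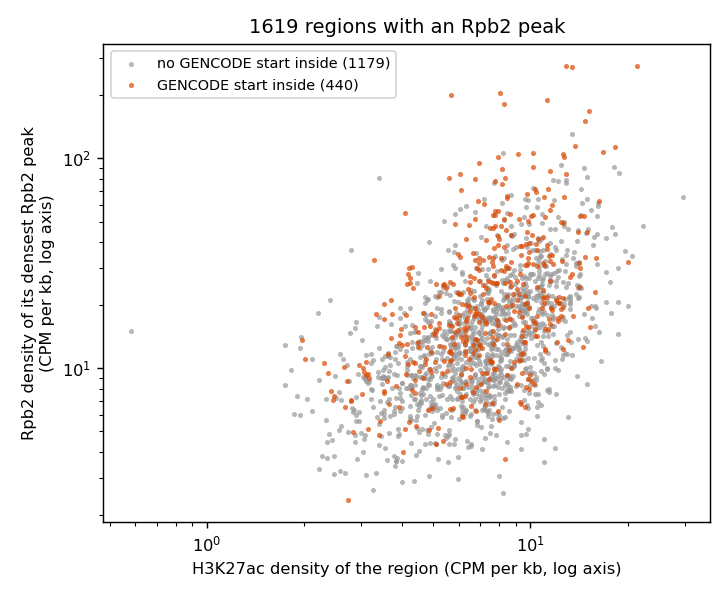
Density of the densest Rpb2 peak in a region against the H3K27Ac density of the region (both in CPM per kb, mean of 4 libraries, log axes), 1 point for each of the 1619 regions that hold an Rpb2 peak. The 440 regions with a GENCODE start inside include the 5 with the highest Rpb2 density, from 201 to 277.

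The regions with the highest Rpb2 density held start sites that the peak annotation did not use. At *Parp16* an Rpb2 peak (chr9:65196384-65196657) had 938 reads in the library labelled WT female, 965 in WT male, 2909 in KO female and 1428 in KO male, a mean density of 277 CPM per kb, and its region holds GENCODE starts of *Parp16* and of the small nuclear RNA gene *Gm25313*. The Rpb2 peaks near *Sirt4* (271) and *Kif2c* (205) lie in regions that hold starts of small nuclear RNA genes, as does a second *Parp16* peak (201) at *Rnu5g*. These short RNAs build the spliceosome and come from multicopy families. Since only reads with a unique position were used, reads that fit several copies would not be counted.

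Against GENCODE, a fuller annotation than the one used for the peaks, 1333 regions (29.7%) overlapped a gene and 642 (14.3%) held a transcript start, 286 (6.37%) of a protein-coding gene and 288 (6.41%) of a long non-coding RNA gene. The 642 had an Rpb2 peak in 68.5% of cases and a median H3K27Ac density of 6.34, against 30.6% and 4.34 for the 3849 without. Their median log2 fold change was 0.132, against 0.0103, and without WT female 0.00616, against −0.144. Medians also differed between the 4 density classes, from −0.285 in the lowest through −0.0727 and 0.0893 to 0.164 in the highest. Without WT female they were −0.153, −0.195, −0.1 and −0.0917 from lowest to highest. Without WT male they were −0.28, 0.125, 0.335 and 0.503. The part of density in the difference between regions with and without a start was not tested. Among the 162 regions with the highest Rpb2 density, 84 (51.9%) held a start, against 356 of 1457 (24.4%) of the other regions with Rpb2. The *Rasgrf2*, *Eps8l1*, *Csf1r*, *H2-DMb2*, *Cd52* and *Kdr* regions named here are among those with a GENCODE start of their own gene, and for them the label intergenic does not hold in that annotation.

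The comparison of Rpb2 in KO and WT asks whether polymerase at these regions differed. By edgeR with Benjamini-Hochberg adjustment, 2 of 26706 Rpb2 peaks passed (0.00749%), and 0 of the 2273 inside the regions did. At an unadjusted edgeR p under 0.05, 89 (3.92%) were higher in KO, against 6.12% of all Rpb2 peaks, and 82 (3.61%) were lower, against 6.06%. The median log2 fold change inside the regions was 0.00159 (SD 0.88), against 0.0407 (SD 1.24) over all. DESeq2 called 43 of them (1.89%), against 3.83% of all Rpb2 peaks. Without the library labelled WT female edgeR called 106 (4.66%), against 8.28% of all, and without WT male 100 (4.40%), against 7.35%.

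The lowest edgeR adjusted p was 0.198, shared by the 5 peaks that follow, all of which passed with DESeq2 (adjusted p from 5.25e-05 to 0.00879). In the *Mknk2* region, a gene for a kinase that phosphorylates the translation factor eIF4E, an Rpb2 peak (chr10:80676228-80676428) had 148 reads in the library labelled WT female, 165 in WT male, 127 in KO female and 100 in KO male (log2 fold change −1.87, SE 0.35). This Rpb2 peak is annotated 35 bp from the *Mknk2* TSS, although the H3K27Ac peak that holds it was placed beyond 1000 bp, and 169 of the 2273 Rpb2 peaks (7.44%) were annotated within that distance of a TSS. Its levels were 112 ± 4.562 TMM CPM in WT and 31.1 ± 11.2 TMM CPM in KO (SD, n = 2 pools each), while H3K27Ac of the region had a log2 fold change of −0.003365. Peaks in the *Zfp239* and *Tcf12* regions had 133, 200, 228 and 99 reads and 63, 83, 57 and 13 reads, with log2 fold changes of −1.55 and −2.70. A peak near *Glul*, the glutamine synthetase gene, had 233, 231, 432 and 170 reads and a log2 fold change of −1.20. A peak near *Mir6904* (chr1:180603863-180604160) had 0 and 0 reads in WT against 60 and 49 in KO, which makes the KO mean of 15.0 TMM CPM at least 14-fold higher than the floor of 3 reads over both WT libraries (1.07 TMM CPM).

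The sequences at the centres of the regions were searched for the letters of 15 motifs. In the central 300 bases of the 4489 regions with sequence (2 lie on contigs that were not searched), the PU.1 letters GAGGAAGT were found in 7.82%, against 4.54% of all H3K27Ac peaks in windows of the same length, 7.40% of the distal intronic peaks, 3.02% of the promoter peaks and 1.64% of windows 5 kb outside the regions. In 300 bases around the centres of the Rpb2 peaks inside the regions the share was 10.7%. AP-1 letters (TGANTCA) were found in 10.4% of the regions, 8.59% of all peaks and 8.94% of the outside windows. C/EBP letters (TTGCNNAA) were found in 12.7%, 11.4% and 11.7%, IRF letters (AANNGAAA) in 34.9%, 31.3% and 32.5%, and RUNX letters (TGTGGTT) in 8.13%, 6.81% and 7.96%. Among these 5 families, PU.1 letters thus showed the widest gap between regions and outside windows.

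The GC-box letters GGGCGGGG of SP and KLF factors were found in 3.79% of the regions and in 28.3% of the promoter peaks. PU.1 and IRF letters occurred together in 122 regions and overlapped in 14, since the GGAA core is part of both. In the same 4 classes of H3K27Ac density, from lowest to highest, the PU.1 share was 6.23%, 6.95%, 9.72% and 8.38%. The ratio of the PU.1 share to that of all peaks was 1.72 with 300 bases and 1.65 to 1.74 with windows of 500 and 200 bases. Base composition differs between these sets and was not matched.

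PU.1 letters were also concentrated at the centres. In bins of 100 bases, they were found in 2.985% and 3.096% of the regions in the 2 bins next to the centre, against 0.802% and 0.624% in the bins 1000 bp away on either side. Around the centres of Rpb2 peaks the central shares were 3.917% and 4.313%, against 0.792% and 0.880% at 1000 bp. AP-1 letters went from 3.074% and 2.851% at the edges to 3.921% and 3.876% next to the H3K27Ac centre. The GC-box letters of SP and KLF factors went from 0.757% and 0.780% at the edges to 1.715% and 1.359% next to it, and to 3.213% and 2.949% next to the centres of Rpb2 peaks.

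**Figure D5:**
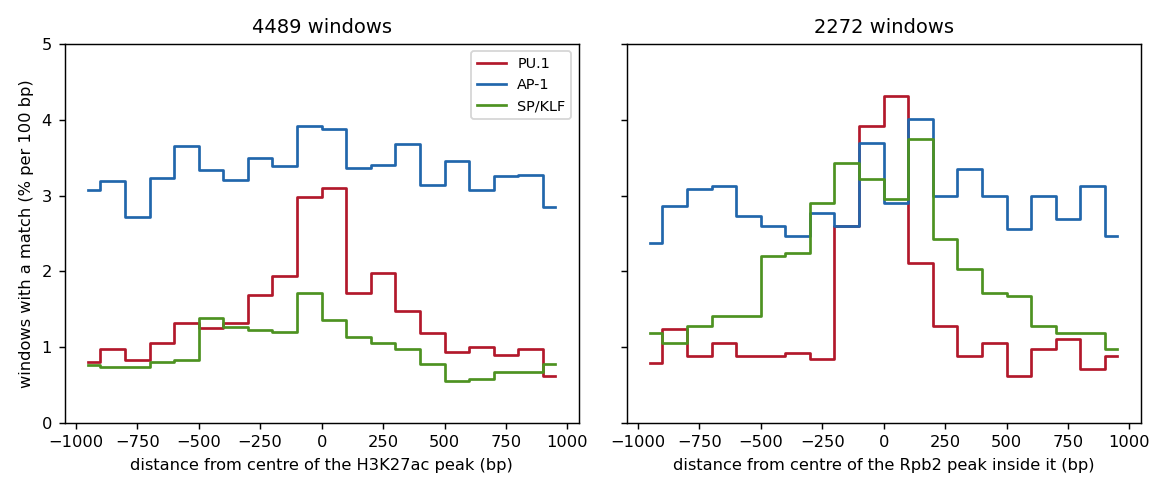
Share of windows with PU.1, AP-1 or SP/KLF letters in bins of 100 bases, by distance from the centre of the H3K27Ac peak and from the centre of the Rpb2 peaks inside the regions. The PU.1 line peaks at the centre, at 3.096% around H3K27Ac centres and 4.313% around Rpb2 centres.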

How the data were processed

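H3K27Ac and Rpb2 ChIP-seq was analysed in 8 libraries of pooled microglia (3 mice per pool). Per the methods, the authors aligned single-end reads of 51 nt to mm10 (Bowtie 2), used only reads with a unique position, and found peaks with HOMER, of which those passing an irreproducible discovery rate filter between pools entered a joint WT and KO list. Versions are not given in the sources used here. Raw read counts per merged peak were deposited by the authors, with library totals in the file headers. The number of sample columns left unused was 0. Nothing says how reads on repeats were treated beyond unique mapping, and counts are not adjusted for input.

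Peaks were tested where either genotype averaged 4 reads or more, with edgeR 4.0.16 (TMM, glmQLFit and glmQLFTest, genotype alone, Benjamini-Hochberg adjustment over all tested peaks, threshold 0.05) in R 4.3.3, and all 4491 regions passed that filter. A prior count of 2 entered the ratios between single libraries. DESeq2 1.42.0 and limma 3.58.1 gave alternatives, together with other scalings, filters, a replicate block by sex and each library left out. On simulated counts with a 4-fold change in 200 peaks, the fit over all tested peaks recovered 0 of them. Every simulated peak was given the same spread, a dispersion of 1.276 there and 0.1089 for peaks of both lists. The fits of real counts let the spread differ between peaks. A fit limited to peaks of both lists recovered 116 of 200, with 7 false calls. On the real counts that fit called 0 of 21033 peaks and 0 of the 4491 regions. Because of the shared spread, the simulation does not give the share of changes that would be found among these regions. Few calls over all peaks do not show that few regions changed, and smaller changes were not simulated. With 2 pools per genotype, the edgeR p-values rest on a spread that is estimated largely by sharing information over peaks. They do not measure the spread between the pools of a single region. The 2 pools of a genotype also differed in sex. Sequences and motif letters (15 motifs, both strands, overlaps allowed) came from GRCm38 and transcript starts from GENCODE, after all 21 chromosomes were found to contain every peak. Python 3.11.15, pandas 2.3.3, NumPy 2.4.6, SciPy 1.17.1 and matplotlib 3.10.9 were used.

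Named regions were the 10 densest, every called one and the 5 with the lowest p in each direction, the 3 densest per gene list, the 10 genes with most regions (13 with ties), and the 5 highest Rpb2 densities and 5 lowest Rpb2 p-values, and an item withheld from the text is not reported here. The other *Fos*, *Jun*, *Klf* and *Dusp1* regions and those near *Gm4668* and *Gadl1* were chosen after their values were seen. The members, gene lists and tests were chosen with earlier results of these data known.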

Additional observations from a re-analysis of the deposited data

Results flagged for a closer look

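Regions chosen by the rule for named regions, also those not described above, were taken up here when the female and the male pools differed by at least 0.5 on the log2 scale in opposite directions between KO and WT. Each value compares 1 KO pool with 1 WT pool of the same sex, so the difference between sexes was not tested. The *Tnfaip3* region (chr10:19060470-19066312) had a log2 ratio of 1.03 in females and −0.564 in males. For the *Parp16* region (chr9:65193735-65197866) the ratios were 0.999 and −0.691. The *H2-Ob* region (chr17:34247153-34250657), near a gene for a chain of the MHC class II regulator, had 1.36 and −0.623. The *Abca1* region (chr4:53195636-53196794), near the gene of a cholesterol exporter, had 0.609 and −0.53. Over all 4491 regions the medians were 0.238 and −0.0975, and 568 regions (12.6%) had opposite signs with at least 0.5 in each sex. In all of these the female ratio contains the WT female library with 15.9% of its reads in peaks.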

How the results depend on the processing

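The number of regions called was small and unsteady across settings. Against 1 region in the test reported, edgeR called 0 with whole-library totals as scaling, 0 with at least 10 reads in every library, 0 with peaks of both lists only, and 3 with loess offsets (18 of 55798 peaks), and DESeq2 called 11 (240 of 55798). Settings added after seeing the data gave 0 with the newer quasi-likelihood method, 0 with limma voom and 87 with peaks of both lists without WT female (305 of 21033). Leaving out 1 library gave 0 to 720. The median log2 fold change was 0.655 with whole-library totals, which moved all peaks to 0.529, and −0.117 to 0.272 with 1 library left out. The difference in the share of reads reversed to −0.338 percentage points without WT female and reached 7.9 at most. For Rpb2 inside the regions, against 0 called, DESeq2 gave 43 (1022 of 26706 over all Rpb2 peaks), at least 10 reads in every library 3, the newer method 7, and leaving out 1 library 0 to 106. Over all Rpb2 peaks, at least 10 reads in every library gave 30 of 19834 (0.151%, against 0.159% inside the regions). The newer method gave 272 of 26706 over all Rpb2 peaks (1.02%, against 0.308% inside the regions). With Rpb2 peaks of both lists only, 684 regions overlapped one. The ratio of EGR letters to all peaks was 0.279, and 0.535 with 500 bases. The call of *4930517M08Rik* was lost in 7 of 14 alternatives. The AP-1 list's median stayed between 0.214 and 0.369 above that of all regions in the alternatives run. The cause of these moves was not tested.

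The sexes number the pools but are different animals, and deviations of same-sex pools correlated at 0.067 over the regions and −0.00027 over all peaks, so they were not taken as pairs. With sex as a replicate block, 1 region was called (12 of 55798 over all tested peaks) and the median was 0.0881. Of the 2273 Rpb2 peaks inside the regions 0 were called (4 of 26706 over all Rpb2 peaks). This block takes the sex labels as given, although the Y-linked reads go against that of the WT female Rpb2 library.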
